A study of Homo sapiens with 6 samples.

Results

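Chromosome 4 is described here in 6 ATAC-seq libraries of MDA-MB-231, a long-established line of human breast cancer that lacks hormone receptors, because its arms differed between the groups in opposite directions. In ATAC-seq a transposase inserts adapters into open chromatin, and each deposited list gives the summits, the positions of strongest signal, of the peaks called in 1 library. The 3 Parental libraries came from unedited cells, and the 3 SAP30-KO1 libraries came from the same line after CRISPR/Cas9 knockout of SAP30, a subunit of the SIN3 histone deacetylase complex. Both groups were grown in the same medium, and the labels gave no treatment or time point. The knockout line was a mixture of several selected knockout cells, so SAP30 loss and anything else that those cells carried cannot be told apart. The labels did not say whether replicates were separate cultures. Promoters of VIM, CD44 and CAV1, genes of mesenchymal-like breast lines, held a summit in 6 of 6 libraries. Promoters of the hormone receptor genes ESR1 and PGR held one in 1 library each, and the promoter of CDH1, the epithelial cadherin, in 0.

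All summits on chromosome 4 were taken, and the arms were divided at the centromere gap of the hg19 sequence. This gave 12047 of the 205397 summits of the series (5.87%), of which 3232 lay on the short arm (49.7 Mb) and 8815 on the long arm (138 Mb). Per library the chromosome held 2181, 1773 and 1984 summits in Parental cells and 1705, 2443 and 1961 in SAP30-KO1 cells, of lists of 29762 to 40650 summits. Summits extended by 250 bp on each side and merged where they overlapped formed 3335 loci on chromosome 4 of 56419 in all. Of these, 935 had a summit in all 6 libraries (28.0%, against 28.9% of all loci), with 233 on the short arm and 702 on the long arm. No locus was left out for a low score, and the loci missing from at least 1 library are described by presence. The chromosome was chosen on the share of summits and on the ranks of these same libraries, so every difference between the groups below is a description without a test.

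ATAC-seq signal follows both how open a stretch of chromatin is and how many copies of it a cell holds, and the karyotypes of cancer cell lines are often rearranged. Open chromatin lies mostly at promoters, where transcription starts, and at distal elements such as enhancers. Promoters in this genome are often rich in GC and CpG, while distal elements of breast cancer cells often carry motifs of the AP-1, TEAD and RUNX families of transcription factors. SIN3 is recruited to promoters by DNA-binding factors and carries histone deacetylases, and SAP30 is one of its core subunits. The long arm carries SAP30 itself and ING2, which encodes another SIN3 subunit.

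Below are the promoter locus and the distal locus with the largest difference on each arm, in the direction of that arm, to show the kinds of sequence behind the values. They were read from the GRCh37 plus strand as up to 201 bases of the locus nearest its median summit that overlap no annotated exon. Capitals mark matches on either strand to GGGCGG (the GC box), GGAATG (TEAD), TGTGGT (RUNX), CCGGAAG (ETS) or TGAGTCA and TGACTCA (AP-1), and matches of different motifs could overlap.
ZCCHC4 promoter, short arm, chr4:25314195-25314395: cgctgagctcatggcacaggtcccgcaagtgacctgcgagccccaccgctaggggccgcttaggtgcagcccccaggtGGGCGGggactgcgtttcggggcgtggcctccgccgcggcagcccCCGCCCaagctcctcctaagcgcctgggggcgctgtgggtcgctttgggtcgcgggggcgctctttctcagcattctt
PCDH7 distal locus (nearest start), short arm, chr4:28923491-28923691: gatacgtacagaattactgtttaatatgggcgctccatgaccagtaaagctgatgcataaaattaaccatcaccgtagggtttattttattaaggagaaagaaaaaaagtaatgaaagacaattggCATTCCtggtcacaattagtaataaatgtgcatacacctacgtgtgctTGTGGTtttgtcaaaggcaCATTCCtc
BTC promoter, long arm, chr4:75719734-75719934: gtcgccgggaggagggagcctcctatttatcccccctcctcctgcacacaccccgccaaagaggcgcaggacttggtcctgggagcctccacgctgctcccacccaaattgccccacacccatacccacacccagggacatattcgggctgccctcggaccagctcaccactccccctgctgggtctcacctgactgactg
ARSJ distal locus (nearest start), long arm, chr4:114936722-114936922: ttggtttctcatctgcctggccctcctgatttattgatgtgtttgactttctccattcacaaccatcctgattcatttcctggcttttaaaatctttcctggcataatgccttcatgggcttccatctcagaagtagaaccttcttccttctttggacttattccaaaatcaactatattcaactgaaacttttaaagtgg
The stretches at ZCCHC4 and BTC have a GC content of 71.1% and 64.7%, and those near PCDH7 and ARSJ of 36.8% and 38.8%. The ZCCHC4 promoter held 2 GC boxes, the site nearest PCDH7 held 2 TEAD motifs and 1 RUNX motif, and the other two held none of these letters.

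The short arm took a larger share of the summits in SAP30-KO1 cells and the long arm a smaller one. The short arm held 1.40%, 1.41% and 1.46% of the summits of the Parental libraries and 1.70%, 1.76% and 1.68% of those of the SAP30-KO1 libraries. Every SAP30-KO1 library lay above every Parental library, and the means were 1.42% ± 0.0300 and 1.72% ± 0.0433 (SD, n = 3), a log2 ratio of 0.27. The long arm held 4.54%, 4.41% and 4.46% against 4.03%, 4.25% and 4.04%. Here every SAP30-KO1 library lay below every Parental library, with means of 4.47% ± 0.0661 and 4.11% ± 0.122 (SD, n = 3) and a log2 ratio of -0.12. Ranges of shares that do not overlap are called apart below, and they were apart on 29.3% of the 41 arms compared. Among these arms the short arm of chromosome 4 stood 2nd from the top by log2 ratio and the long arm 37th.

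Scores at loci that all libraries shared were compared as percentile ranks, from 0 to 100 within a library's own list, because −log10 q values from lists called one by one cannot be set against each other directly. The median rank on the short arm was 72.2, 67.3 and 69.3 in Parental and 75.8, 83.0 and 79.96 in SAP30-KO1 libraries, and these groups did not overlap. Over its 233 loci the median difference, SAP30-KO1 minus Parental, was 7.50 percentile points, and 73.0% of the loci were higher in SAP30-KO1. For the long arm the median rank was 76.9, 72.8 and 74.1 in Parental and 67.8, 78.0 and 72.2 in SAP30-KO1 libraries. These overlapped, since SAP30-KO1 replicate 2 had the highest value of the 6, and the median difference over 702 loci was -1.07, with 42.7% of the loci higher. Without SAP30-KO1 replicate 2 it was -3.45, and the groups were then apart. The 15379 shared loci of the other chromosomes had a median difference of 0.184, with 51.1% higher. Their median rank was 75.5, 70.5 and 73.2 in Parental and 69.6, 77.9 and 73.4 in SAP30-KO1 libraries. SAP30-KO1 replicate 2 was thus the highest there as well, so its high rank was not particular to the long arm. Median ranks were apart on 9.76% of the arms.

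The order of the arms was also compared within each library, where both are ranked in the same list. The short arm's median rank minus that of the long arm was -4.76, -5.50 and -4.81 in the Parental libraries. In the SAP30-KO1 libraries it was 7.96, 5.08 and 7.71. The sign was thus the same in all 3 libraries of a group and opposite between the groups, with means of -5.03 ± 0.416 and 6.92 ± 1.60 (SD, n = 3). The number of short-arm summits was 30.9%, 31.9% and 32.7% of the number on the long arm in Parental and 42.2%, 41.5% and 41.6% in SAP30-KO1 libraries, which again did not overlap.

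**Figure D1:**
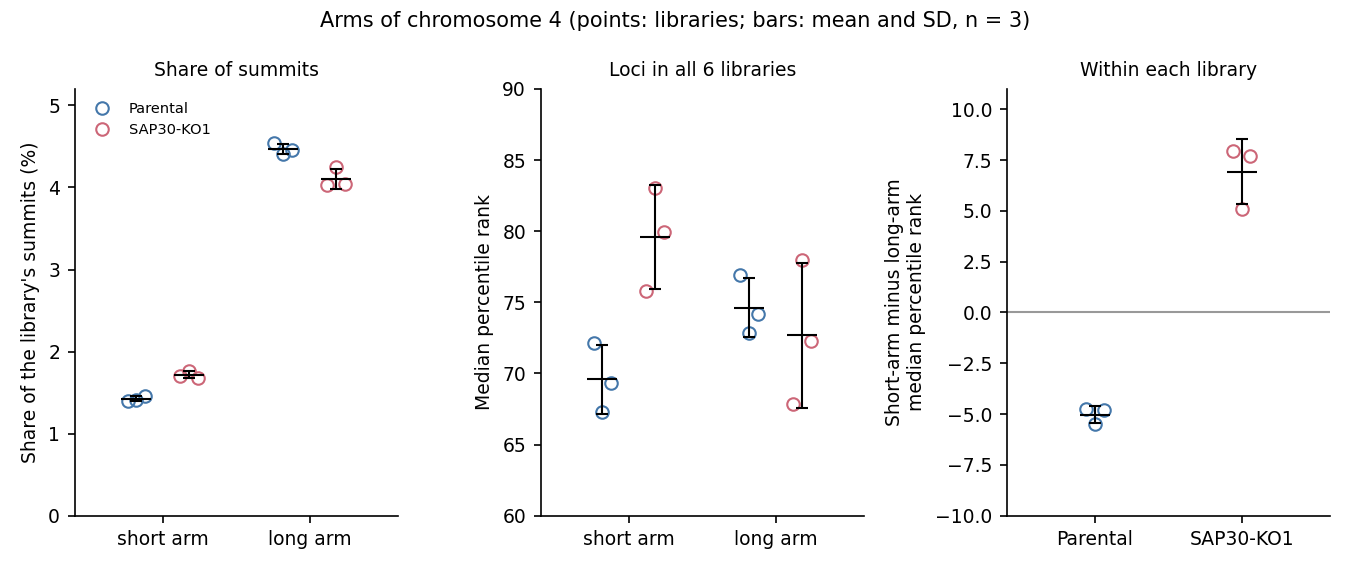
Share of summits (left, percent of the library's list), median percentile rank of the loci in all 6 libraries (middle) and the difference of the median ranks of the arms within each library (right). Points are libraries, bars the mean and SD of 3 libraries, and the right panel shows the Parental libraries at -4.76 to -5.50 and the SAP30-KO1 libraries at 5.08 to 7.96.

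In 10 Mb windows the higher share extended over the whole short arm. All 5 windows from the short-arm end to the gap had shares apart and higher in SAP30-KO1, with log2 ratios of 0.20 to 0.37. Over all chromosomes, 15.9% of 308 windows had shares apart and higher and 16.6% had shares apart and lower. The largest ratio was that of the window from 20 to 30 Mb, which held 0.313%, 0.302% and 0.289% of the Parental and 0.407%, 0.394% and 0.371% of the SAP30-KO1 summits. Of the 15 windows on the long arm, 6 had shares apart and lower, namely those from 90 to 100, from 120 to 130 and the 4 from 140 to 180 Mb. The lowest of these ratios was -0.23, from 140 to 150 Mb, where the shares were 0.428%, 0.423% and 0.420% in Parental and 0.353%, 0.379% and 0.353% in SAP30-KO1 cells.

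Ranks followed the shares on the short arm and barely differed on the long arm. Median differences of the 5 short-arm windows were 4.73 to 11.9 points, and all lay above 0. The median ranks were apart and higher in 3 windows, from 0 to 10, from 20 to 30 and from 30 to 40 Mb, whereas 11.6% of the 293 windows of the genome with at least 10 shared loci were apart and higher and 6.83% apart and lower. In the window from 20 to 30 Mb the median ranks were 66.5, 60.4 and 64.5 in Parental and 75.04, 80.4 and 80.4 in SAP30-KO1 libraries. Of the long-arm windows, 0 of 14 had median ranks apart, and their median differences were -4.09 to 1.26. Over the chromosome, 3 windows were apart and higher and 5 apart and lower without SAP30-KO1 replicate 2, and 5 higher and 1 lower without SAP30-KO1 replicate 1. The last window, from 190 Mb to the end, held 4 shared loci and was not compared.

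The 20 shared loci nearest the gap on the short arm had a median difference of 5.70, with 16 of 20 higher in SAP30-KO1, 3 of them apart. Their median ranks were 86.9, 83.2 and 83.2 in Parental and 85.2, 89.3 and 87.5 in SAP30-KO1 libraries, which overlapped. The 20 nearest on the long arm had a median difference of -0.798, with 9 of 20 higher and 1 apart. In windows of 5 Mb, both those on either side of the gap, from 45 to 50 and from 50 to 55 Mb, had shares and median ranks that overlapped. The long arm was also divided at SAP30 itself, at 174 Mb, and whether there is a step there was not tested. The 604 shared loci between the gap and SAP30 had a median difference of -1.13, and the 98 beyond it of -0.803. The share of summits was apart and lower between the gap and SAP30 (log2 ratio -0.13), and it overlapped beyond SAP30 (-0.09). The lists hold no measure of DNA content, so a change in the number of copies of a segment and a change in accessibility along it cannot be told apart.

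**Figure D2:**
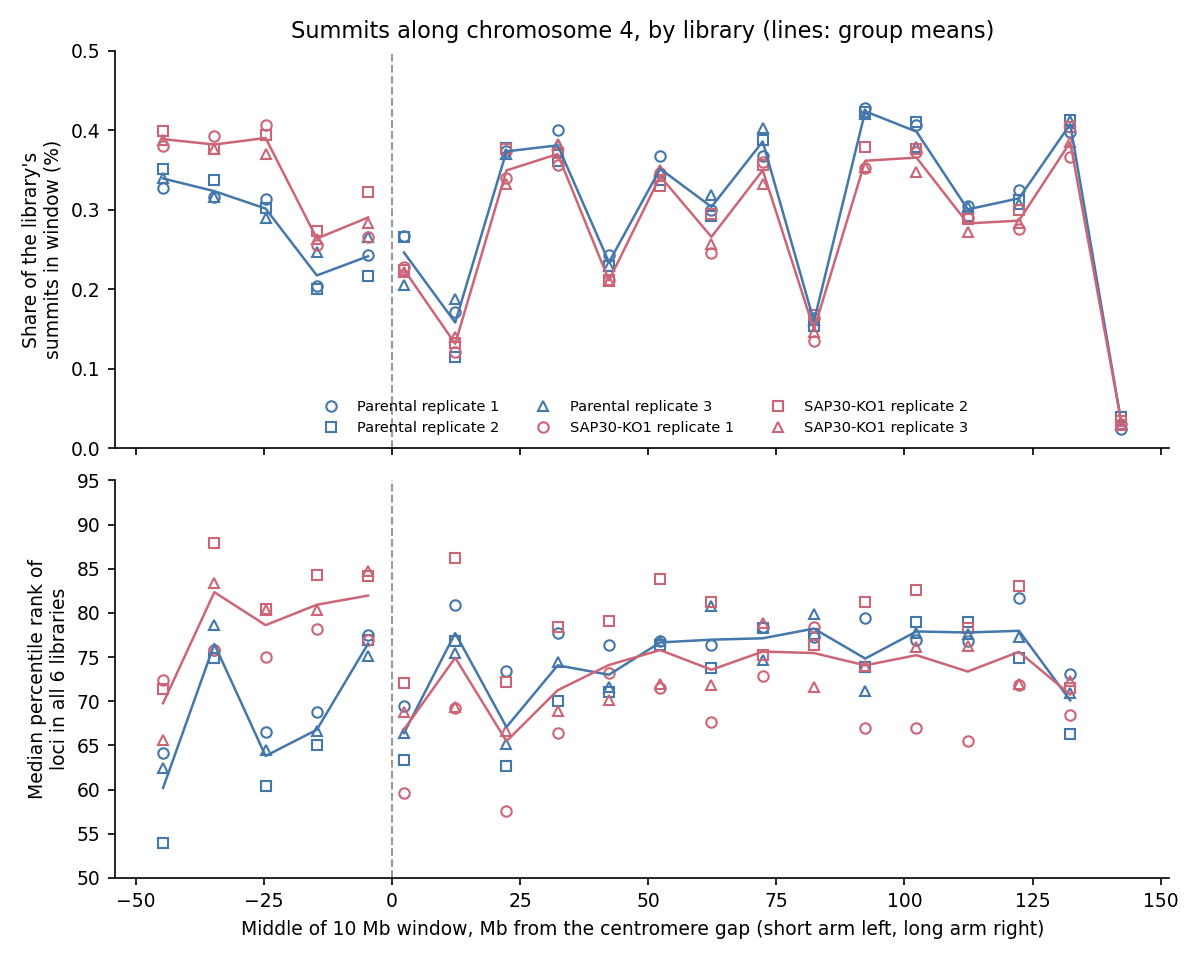
Share of summits (top, percent of the library's list) and median percentile rank of the loci in all 6 libraries (bottom) in 10 Mb windows, placed by the distance of their middle from the centromere gap in Mb. Symbols are libraries and lines are group means. Left of the gap all 5 windows have higher shares in the SAP30-KO1 libraries, and right of it the lines for ranks stay close.

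On the short arm 45 of 233 shared loci had ranks apart and higher in SAP30-KO1 and 2 had ranks apart and lower, while on the long arm 29 of 702 were apart and higher and 45 apart and lower. Over all shared loci, 8.58% were apart and higher and 7.08% apart and lower. The long arm's 6.41% apart and lower thus lay below that of all loci, and its 4.13% apart and higher below as well. Without SAP30-KO1 replicate 1 the long arm had 81 apart and higher and 80 apart and lower, and with summits extended by 100 bp it had 22 and 23. The difference was not carried by a few loci, as the middle 50% of the short-arm differences spanned -0.264 to 17.4 points and those of the long arm -9.36 to 4.99. The difference varied with the rank of a locus. Short-arm loci with a mean rank of 50 to 80 had a median difference of 12.8 (119 loci), those below 50 of 10.9 (40 loci), and those of 80 and above of 3.81 (74 loci). The same bands of the long arm had -0.907, -4.88 and -0.793. Across the 233 short-arm loci the difference went with neither GC content (Spearman rho 0.02) nor, other than weakly, mean rank (rho -0.27), where all loci share the same 6 libraries.

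Promoters and distal loci lay close to each other on each arm. A locus was called a promoter when a summit lay within 1 kb of any annotated transcript start. On the short arm 87 promoter loci had a median difference of 7.73, with 69 of 87 higher, 16 apart and higher and 0 apart and lower. The 146 distal loci had 6.61, with 101 higher, 29 apart and higher and 2 apart and lower. The 302 promoter loci of the long arm had -0.907 (11 apart and higher, 19 apart and lower) and its 400 distal loci had -1.17 (18 and 26). The promoter minus distal difference was therefore 1.12 points on the short arm and 0.27 on the long arm. Its sign on the short arm turned to -1.98 with windows of 100 bp on each side. On the other chromosomes 7.24% of promoter loci were apart and higher and 6.28% apart and lower, and of distal loci 9.74% and 7.95%. The long arm had 3.64% and 6.29% of its promoter loci and 4.50% and 6.50% of its distal loci. Loci apart and lower were thus not in excess there in either class.

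By share of summits, both classes were apart on the short arm. Promoter summits of the short arm made up 0.401%, 0.440% and 0.423% of the Parental and 0.511%, 0.462% and 0.493% of the SAP30-KO1 lists, a log2 ratio of 0.21. Distal summits made up 1.003%, 0.968% and 1.03% against 1.19%, 1.30% and 1.19%, a log2 ratio of 0.29. On the long arm the ranges overlapped for both, with log2 ratios of -0.10 for promoter and -0.13 for distal summits. Within distal loci, the 57 intergenic loci of the short arm had a median difference of 8.78 and the 84 intronic loci of 5.55. The 167 intergenic loci of the long arm had -1.09 and the 221 intronic loci -2.03.

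**Figure D3:**
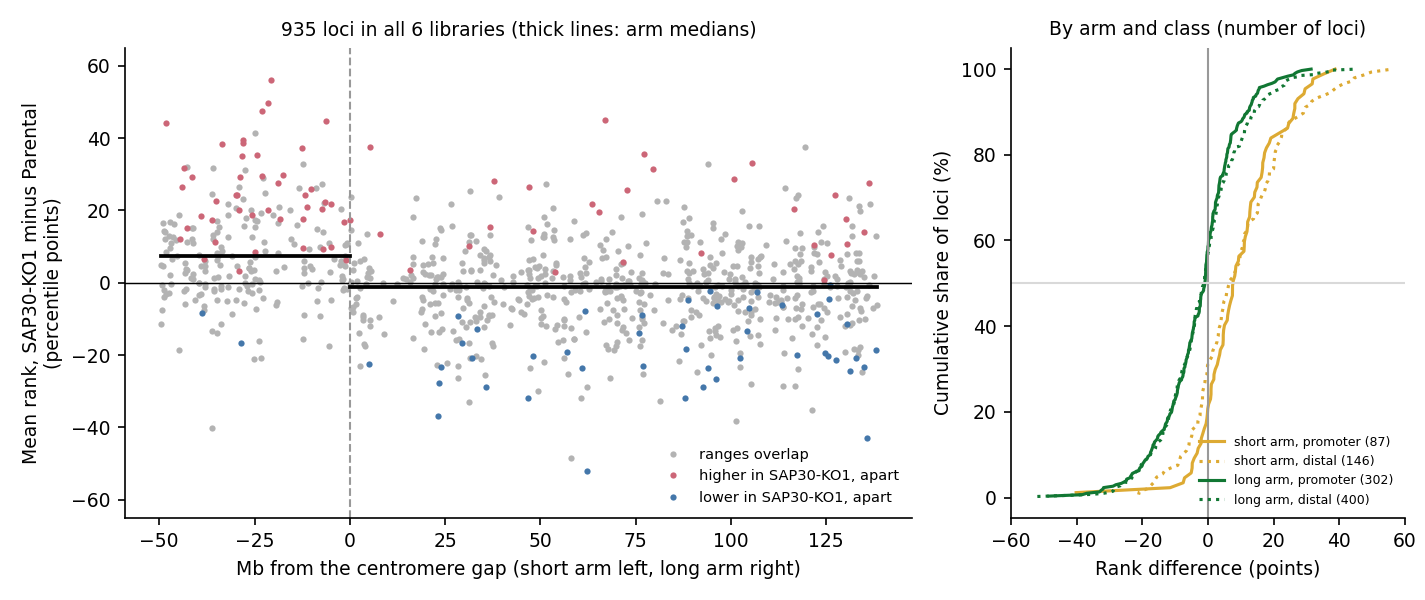
Left, mean rank in SAP30-KO1 minus mean rank in Parental libraries (percentile points) of each of the 935 shared loci against its distance from the centromere gap in Mb, where red and blue points are loci whose ranks do not overlap between the groups and thick lines are the arm medians of 7.50 and -1.07. Right, cumulative share of the loci by difference, where the promoter and distal curves of each arm lie close to each other and the arms lie apart.

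The promoters with the largest differences on the short arm belonged to genes of various functions. The locus at ZCCHC4, which encodes an RNA methyltransferase, had ranks of 42.2, 38.4 and 30.4 in Parental and 63.9, 61.4 and 91.4 in SAP30-KO1 libraries (chr4:25314054-25314696). WFS1, which encodes the endoplasmic reticulum protein wolframin, had 33.6, 12.1 and 31.8 against 64.7, 49.0 and 59.2 (chr4:6271111-6271925). Both were higher in every SAP30-KO1 library, by 35.2 and 31.8 points on average. TBC1D19, of a family that regulates Rab GTPases, had 80.7, 23.0 and 79.4 against 90.3, 96.0 and 85.7 (chr4:26585208-26586105). Its difference of 29.6 points was 10.6 without Parental replicate 2 and 90.7 when summits were extended by 100 bp, where a library without a summit counts as rank 0. SH3TC1, which encodes an SH3 domain protein, had 63.7, 35.9 and 69.3 against 84.4, 84.8 and 87.5, a difference of 29.3 that was 19.1 without Parental replicate 2 (chr4:8200521-8201342). EVC, which encodes a protein of the primary cilium in hedgehog signalling, had 32.1, 13.3 and 38.4 against 74.8, 39.5 and 49.0, a difference of 26.5 (chr4:5712598-5713499). In EVC the highest Parental and lowest SAP30-KO1 values nearly met, the difference was 16.3 without SAP30-KO1 replicate 1, and the groups overlapped (25.1) when the same number of top-scoring summits was used per library. Those of SH3TC1 overlapped with windows of 100 bp on each side, with a difference of 36.2. No promoter of a protein-coding gene on the short arm was apart and lower.

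Distal loci of the short arm reached larger differences. The largest was in intergenic sequence whose nearest start, 1.8 Mb away, was that of PCDH7, a protocadherin of cell adhesion (chr4:28923314-28923848). It had ranks of 39.7, 15.5 and 20.7 in Parental and 89.6, 85.9 and 68.8 in SAP30-KO1 libraries, a difference of 56.1. One nearest STIM2, an endoplasmic reticulum calcium sensor, had 39.0, 26.6 and 38.9 against 63.1, 95.1 and 95.7 (chr4:28169031-28169610). Another lay 10251 bp from a start of CCKAR, a receptor for cholecystokinin, and had 75.02, 21.7 and 50.7 against 96.6, 95.8 and 97.5 (chr4:26501953-26502709). All 3 were apart, and near CCKAR the Parental libraries were spread widely while the SAP30-KO1 libraries were near the top of their lists. The 2 loci apart and lower were distal. One lay in an intron of KCNIP4, a modulator of potassium channels, with 63.7, 70.8 and 70.2 against 52.7, 49.6 and 52.5 (chr4:21014410-21015311), which overlapped with windows of 100 bp on each side (-12.9). The other lay 77815 bp from a start of CLNK, an adaptor protein of immune cells, with 91.9, 84.5 and 86.7 against 74.9, 81.1 and 82.2 (chr4:10763886-10764682).

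On the long arm, promoters that were lower in SAP30-KO1 included a growth factor gene and a chromatin enzyme. BTC, which encodes betacellulin, a ligand of the EGF receptor, had the largest difference, with ranks of 51.4, 49.1 and 71.2 in Parental and 28.0, 23.0 and 9.96 in SAP30-KO1 libraries (chr4:75718778-75720219). The groups were far apart, by 36.9 points on average, but overlapped with windows of 100 bp on each side (-24.6). A second shared locus at another annotated start of BTC, with a difference of -5.54, had overlapping ranks (chr4:75694142-75695014). SETD7, a lysine methyltransferase, had 56.1, 61.1 and 36.9 against 14.8, 35.3 and 7.96 (chr4:140476326-140476981). HSD17B11, a dehydrogenase of lipid droplets, had 76.6, 83.9 and 76.9 against 44.9, 68.5 and 37.4 (chr4:88312226-88312860). In both, SAP30-KO1 replicate 2 was the closest to the Parental libraries. The promoter shared by LARP7, a protein of the small nuclear RNP that holds back transcription elongation, and ZGRF1, a DNA helicase, had a difference of -23.6. The one shared by G3BP2, a stress granule protein, and USO1, a Golgi tethering factor, had -23.2, or -15.5 without SAP30-KO1 replicate 1.

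Other promoters of the long arm went the opposite way. FBXW7, the substrate receptor of a ubiquitin ligase that targets cyclin E and MYC, had ranks of 42.0, 67.2 and 70.5 in Parental and 85.6, 90.6 and 89.3 in SAP30-KO1 libraries at the start of one of its transcripts (chr4:153457021-153457844). TSPAN5, a tetraspanin, had 13.9, 12.0 and 28.1 against 47.2, 41.1 and 45.3 (chr4:99579543-99580326). Both were apart, by 28.6 and 26.5 points. DDX60 and HERC5, which are both interferon-induced genes, encoding an RNA helicase and a ligase of the ubiquitin-like protein ISG15, had differences of 20.5 and 15.3. The groups at HERC5 overlapped with windows of 100 bp on each side, with a difference of 34.8. TRAM1L1, a protein related to the translocation channel of the endoplasmic reticulum, had a difference of 19.5, which was 6.33 without Parental replicate 2.

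Among the distal loci of the long arm the differences ran to similar sizes in both directions. The lowest was a locus 35939 bp from a start of ARSJ, an arylsulfatase, with ranks of 85.5, 62.6 and 70.4 in Parental and 6.50, 11.6 and 44.4 in SAP30-KO1 libraries (chr4:114936330-114937135). A locus nearest ZFP42, a zinc finger gene of pluripotent cells, had a difference of -42.8 and lay 445440 bp from its start. A locus over an exon of TSPAN5, 14469 bp from a start, had a difference of -31.7, opposite in sign to that of the TSPAN5 promoter above. In the other direction, the locus nearest METTL14, a subunit of the enzyme that methylates adenosine in mRNA, had 75.2, 9.21 and 37.6 against 91.8, 87.9 and 77.6, a difference of 45.1 (chr4:119487054-119487810). Parental replicate 1 nearly reached the SAP30-KO1 values there, and without Parental replicate 2 the difference was 29.4. Loci near IGFBP7, an IGF-binding protein, and near JADE1, a subunit of the HBO1 acetyltransferase, were higher by 37.4 and 35.7 points.

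**Figure D4:**
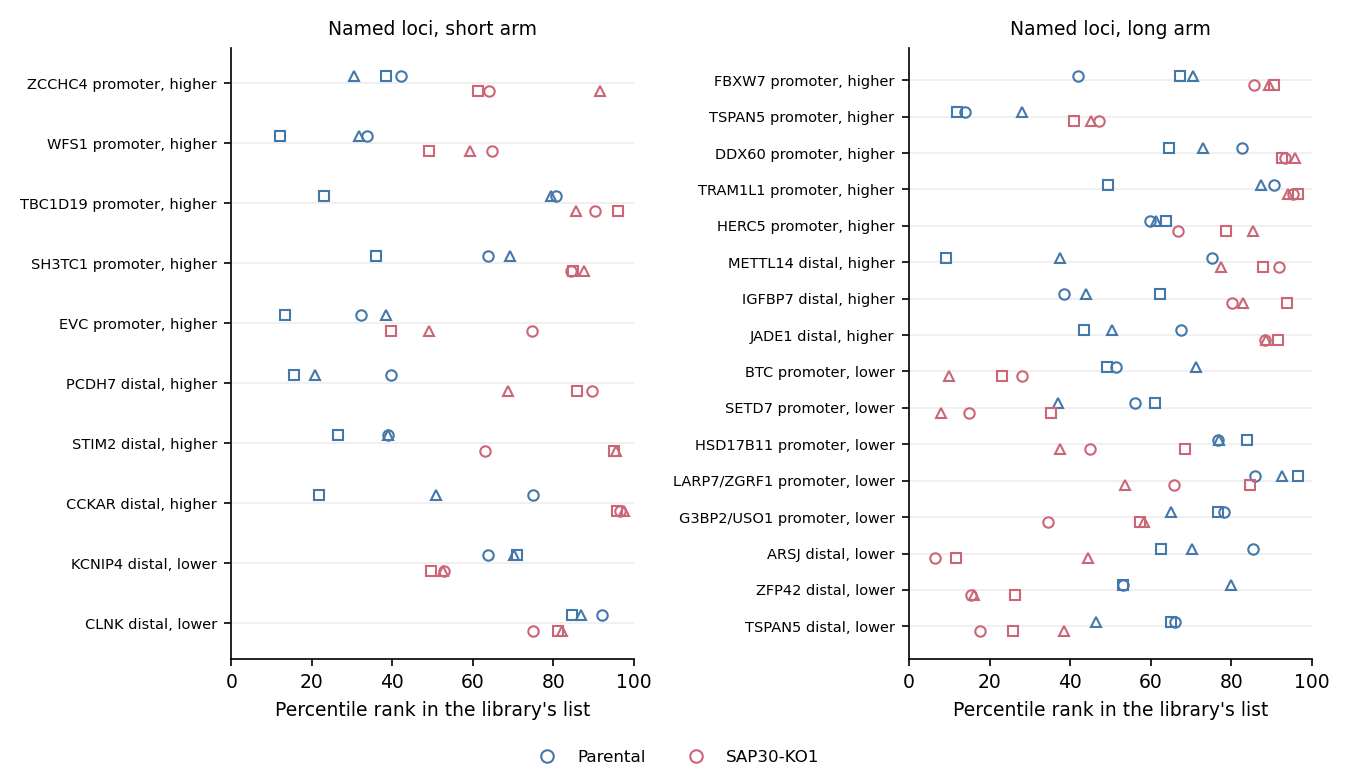
Percentile rank in each library's list of the named loci on the short arm (left) and the long arm (right), with Parental in blue and SAP30-KO1 in red (circles, squares and triangles are replicates 1, 2 and 3). Distal loci are named by the nearest protein-coding start, and each row shows groups that do not overlap, such as the locus nearest PCDH7 with 15.5 to 39.7 against 68.8 to 89.6.

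Seen by gene, the short arm had 236 protein-coding genes, of which 84 had a promoter locus shared by all libraries. For these genes the median difference was 7.50, with 64 of 84 positive, 15 apart and higher and 0 apart and lower. The long arm had 524 genes, of which 274 had such a locus, with a median of -1.30, 112 of 274 positive, 8 apart and higher and 14 apart and lower. Some genes share a promoter, and the loci numbered 72 and 243. Genes of the other chromosomes were not counted in this way. Of the promoter loci there, 7.24% were apart and higher and 6.28% apart and lower. Beside these shares of loci, the long arm's 8 and 14 of 274 genes were no excess. The count of short-arm genes with a promoter summit was 121, 105 and 113 in Parental and 122, 137 and 132 in SAP30-KO1 libraries. The long-arm counts were 352, 333 and 342 against 319, 353 and 332, and overlapped.

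Genes whose promoter held a summit in some libraries only were split by arm. On the short arm there were 59 such genes, and 46 of them had the summit in more SAP30-KO1 than Parental libraries, 7 in more Parental libraries and 6 in equal numbers. The long arm had 89 such genes, with 27, 51 and 11 in the same order. The shares with more SAP30-KO1 libraries were thus 78.0% on the short arm and 30.3% on the long arm, beside 45.7% of 5450 genes on the other chromosomes.

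**Figure D5:**
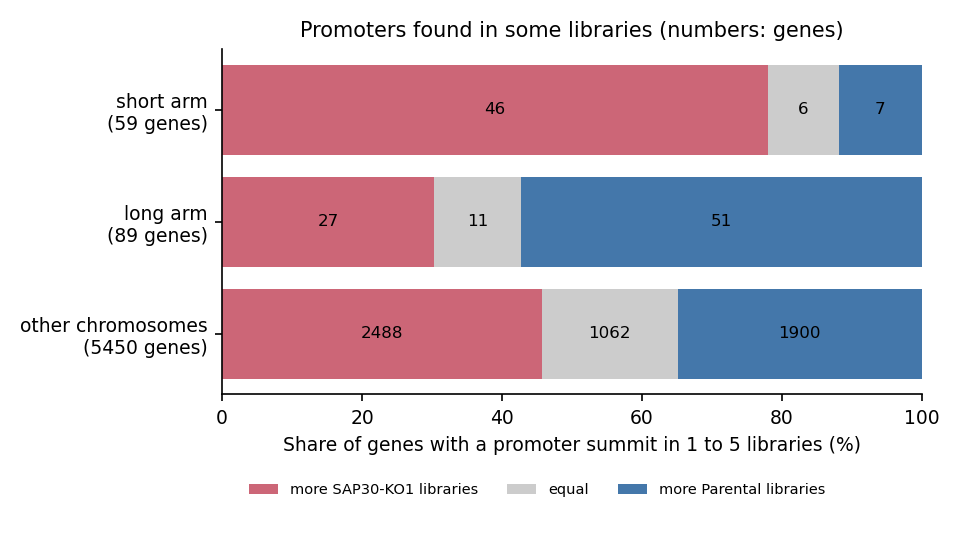
Protein-coding genes with a promoter summit in 1 to 5 of the 6 libraries, by whether more SAP30-KO1 or more Parental libraries held it (percent of the genes, with the number of genes in each bar). The bar for the short arm shows 46 of 59 genes with more SAP30-KO1 libraries, and that for the long arm 27 of 89.

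Genes of lists that were drawn up by function are among those just counted, so their split is a closer look and no second support. Over 5 lists of growth factors, chemokines, chromatin regulators, adhesion and cell cycle genes, 9 short-arm genes had a promoter summit in some libraries only, and all 9 had it in more SAP30-KO1 libraries. They were CTBP1, a corepressor, NSD2, a histone methyltransferase, NELFA, of transcription elongation control, PPARGC1A, a coactivator of mitochondrial genes, KLF3, a zinc finger repressor, LDB2, a LIM domain-binding cofactor, PCDH7, LIMCH1, an actin regulator, and TACC3, of the mitotic spindle. PPARGC1A and TACC3 had it in 1 Parental and 3 SAP30-KO1 libraries each. Of the long-arm list genes, 20 were in some libraries only, and of these 15 had the summit in more Parental libraries, 2 in more SAP30-KO1 libraries and 3 in equal numbers. Among the 15 were EDNRA, the endothelin A receptor, and PCDH18, a protocadherin, with 3 Parental libraries and 1 SAP30-KO1 library each. The 2 that went the other way were BMP3, with 1 Parental and 3 SAP30-KO1 libraries, and PDGFRA, with 0 and 1.

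In the lists a gene with several shared promoter loci is given by the one of highest mean rank. Of the growth factor and receptor genes, 6 of 22 had a shared promoter locus, and none of the 6 was apart at the locus so chosen, which for BTC was the one with a difference of -5.54 and not the one at -36.9 above. For SLIT2, a guidance ligand and the 1 such gene on the short arm, the locus lay at an annotated start far inside the gene (chr4:20616873-20617709, gene from 20253528). Its ranks were 79.2, 48.2 and 36.9 in Parental and 77.8, 83.3 and 82.7 in SAP30-KO1 libraries. These overlapped, but were apart and higher without Parental replicate 1 (38.7), without SAP30-KO1 replicate 1 (28.2) and with equal numbers of top-scoring summits (28.3). At the loci so chosen the long-arm differences were -9.00 to 2.304. PDGFC, a platelet-derived growth factor, had 93.6, 83.1 and 93.3 against 82.4, 85.6 and 78.0, which overlapped but were apart and lower without Parental replicate 2 (-11.5), without SAP30-KO1 replicate 2 (-9.81) and with equal numbers of top-scoring summits (-9.97). GAB1, a docking protein of receptor tyrosine kinases, had a difference of -9.00, with ranks apart without SAP30-KO1 replicate 2 (-14.6), and -30.5 when summits were extended by 100 bp. The CXC chemokine genes, which encode attractants of leukocytes, form a cluster on the long arm in which 3 of 13 had a shared promoter locus and 8 had no summit in any library. CXCL8, the neutrophil attractant interleukin-8, had 64.1, 81.0 and 77.9 against 92.0, 74.998 and 72.4. The groups overlapped there and at CXCL2 and CXCL3, whose differences were 10.6 and -9.12, though CXCL2 was apart without SAP30-KO1 replicate 3 (16.8).

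Of the chromatin and transcription genes, 10 of 23 had a shared promoter locus, with 0 apart. The highest-ranked were NR3C2, the mineralocorticoid receptor, HMGB2, a chromatin-bending protein, and SMARCA5, the ATPase of ISWI remodellers, whose differences were -0.672, -0.767 and -0.883, the last of which was -28.1 when summits were extended by 100 bp. RBPJ, the DNA-binding factor of Notch signalling and the 1 such gene on the short arm, had a difference of 19.2 with overlapping ranks. Its locus lay at an annotated start inside the gene (chr4:26320366-26321686, gene from 26165077). Of the adhesion and cytoskeleton genes 7 of 17 had a shared locus and 0 were apart. FAT4, an atypical cadherin, ANXA5, a membrane-binding annexin, and TENM3, a teneurin, differed by -0.677, 3.72 and 0.0122, of which FAT4 was apart without SAP30-KO1 replicate 2 (-1.37) and TENM3 had -31.3 with overlap when summits were extended by 100 bp. The TENM3 locus lay at an annotated start inside the gene (chr4:183369696-183370561, gene from 183065140). PCDH10, another protocadherin, had 74.7, 89.3 and 86.2 against 80.9, 60.4 and 11.1, a difference of -32.6 with overlap. It was -12.7 without SAP30-KO1 replicate 3, and the groups were apart without Parental replicate 1 (-36.9) and without SAP30-KO1 replicate 1 (-47.6). Of the cell cycle and apoptosis genes 12 of 14 had a shared locus, and 1 of them was apart, FBXW7. NCAPG, a condensin subunit, was a short-arm gene near the top of every list, with ranks of 90.1 to 95.6 in Parental and 89.5 to 93.8 in SAP30-KO1 libraries. CENPC, of the kinetochore, and MAD2L1, of the spindle checkpoint, both on the long arm, differed by 0.142 and -2.30 with overlapping ranks, and MAD2L1 by 60.2, again with overlap, with windows of 100 bp on each side.

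The targeted gene, SAP30, kept a promoter summit in all 6 libraries. Its shared locus lay at an annotated start inside the gene (chr4:174291803-174292435, gene from 174291120). The ranks there were 84.7, 64.8 and 81.3 in Parental and 71.8, 49.5 and 89.5 in SAP30-KO1 libraries, which overlapped. A neighbouring locus upstream, over the first base of the gene, was present in Parental replicate 1 and SAP30-KO1 replicates 1 and 2 (chr4:174290311-174291450). A promoter summit does not report whether the coding sequence was edited, so it is no check of the knockout. ING2 had 72.2, 42.8 and 62.6 against 68.0, 73.4 and 74.9 at its shared promoter locus (chr4:184425190-184426357), also with overlap, though it was apart without Parental replicate 1 (a difference of 19.4) and without SAP30-KO1 replicate 1 (14.98).

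Loci present in one group only were nearly all SAP30-KO1-only on the short arm and almost evenly split on the long arm. Parental-only loci, with a summit in each of the 3 Parental libraries and in 0 of the others, numbered 1 on the short arm and 25 on the long arm. SAP30-KO1-only loci, defined in the same way, numbered 28 and 22. Over the genome, 0.876% of all loci were Parental-only and 1.43% SAP30-KO1-only, against 0.110% and 3.08% of the 909 short-arm loci and 1.03% and 0.907% of the 2426 long-arm loci. Over the chromosome, 50 were SAP30-KO1-only and 26 Parental-only, a split that depended on the lists used. It was 37 and 33 with equal numbers of top-scoring summits, 73 and 81 without Parental replicate 2, and 121 and 34 without SAP30-KO1 replicate 1. With a summit in at least 2 libraries of a group and at most 1 of the other, the counts were 47 Parental and 183 SAP30-KO1 loci on the short arm and 258 and 226 on the long arm. By this looser rule no count was made over all loci, so neither split has a share to be set against. Of the 28 SAP30-KO1-only loci of the short arm, 5 were at promoters, beside 145 of 809 over all loci. These 5 were each at 1 of the annotated starts of their genes and were named after their values were seen. They were those shared by IDUA, a lysosomal enzyme, and SLC26A1, a sulfate transporter (mean rank 53.4 in SAP30-KO1), and by SLBP, which binds histone mRNA, and TACC3 (23.5), and those of LYAR (30.5), TBC1D14 (27.8) and TBC1D1 (20.1). The Parental-only loci at promoters of chromosome 4 were on the long arm and numbered 4 of 25, beside 109 of 494 over all loci. They were at a start of SMAD1, a transducer of BMP signals (mean rank 32.6 in Parental), SEC24D, of COPII vesicles (26.1), STOX2 (26.0) and ACSL1, a fatty acyl-CoA synthetase (16.2). Counted over all annotated starts of a gene, these 4 genes, IDUA and LYAR had a promoter summit in 6 of 6 libraries, TACC3 and TBC1D14 in 1 Parental library and TBC1D1 in 2. By that count, 0 genes of chromosome 4 were Parental-only, and SLC26A1 and SLBP on the short arm and RXFP1, a relaxin receptor, on the long arm were SAP30-KO1-only.

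The strongest of these loci lay on the long arm in both directions. The Parental-only locus of highest rank, 106313 bp from a start of DCTD, a deaminase of nucleotide synthesis, had ranks of 83.3, 83.0 and 82.2 (chr4:183730087-183730902). One in an intron of UGT8, an enzyme of galactolipid synthesis, had 71.5, 48.7 and 86.2 (chr4:115536974-115537492). Another, nearest UNC5C, a netrin receptor, had 63.5, 49.7 and 72.7 (chr4:96493536-96494298). All 3 were without a summit in every SAP30-KO1 library, and when summits were extended by 100 bp those nearest DCTD and UNC5C were in 2 of 3 Parental libraries and still in 0 SAP30-KO1 libraries. The SAP30-KO1-only loci of highest rank were nearest WDFY3, of selective autophagy (90.1, 65.9 and 51.2), nearest NPFFR2, a neuropeptide receptor (69.7, 71.3 and 60.2), and in an intron of ADAMTS3, a procollagen protease (48.6, 62.9 and 63.6).

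Features that do not use the contrast of the groups were tested within libraries, between the arms and against the other chromosomes. The promoter share of summits was 29.1% ± 1.68 on the short arm and 31.3% ± 2.16 on the long arm (SD, n = 6), lower on the short arm in 6 of 6 libraries by 2.28 percentage points (exact paired permutation test, two-sided, p = 0.03125, Benjamini-Hochberg adjusted p = 0.046875 over 3 tests). On chromosome 4 as a whole it was 30.7% ± 1.95, against 36.5% ± 1.21 on the other chromosomes, lower in 6 of 6 libraries by 5.76 points (same test, exact p = 0.03125, adjusted p = 0.046875). The density of summits was 10.8 ± 2.0 per Mb on the short arm and 10.6 ± 1.45 on the long arm (SD, n = 6), and was higher on the short arm in 3 of 6 libraries (exact p = 0.78125, adjusted p = 0.78125). The 3 libraries with more summits per Mb on the short arm were those of SAP30-KO1. The chromosome was chosen on the shares of its arms, which set the groups on opposite sides here. The test of density therefore decides nothing. The smallest p that 6 pairs can give is 0.03125, and with promoters within 2.5 kb of a start the adjusted p of both promoter shares was 0.09375. All libraries are of the same cell line, so the tests of promoter share speak for repeat libraries of that line and not for other cells.

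The sequence at shared loci is given for both arms without a test. Within 201 bases around the summit, median GC content was 66.2% at promoter loci of each arm and 45.8% and 43.8% at distal loci of the short and the long arm. A GC box occurred at 62.1% of 87 short-arm and 53.3% of 302 long-arm promoter loci, beside 53.3% of all promoter loci shared by the libraries. An ETS motif occurred at 9.20% and 5.96% of these, beside 10.2%. An AP-1 motif occurred at 33.6% of 146 short-arm and 25.5% of 400 long-arm distal loci, beside 26.4% of all shared distal loci. A TEAD motif occurred at 19.2% and 21.0% of these distal loci, beside 19.4%, and a RUNX motif at 22.6% and 21.8%, beside 21.2%. Of the 29 distal loci of the short arm that were apart and higher, 6 held an AP-1 motif (20.7%), 6 a TEAD motif (20.7%) and 10 a RUNX motif (34.5%). The 875 such distal loci of all chromosomes held these motifs at 25.7%, 17.0% and 24.3%, and with so few loci on the short arm no difference is drawn.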

How the data were processed

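ATAC-seq summit lists of 3 Parental and 3 SAP30-KO1 libraries of MDA-MB-231 were used, with groups and replicate numbers from the sample labels. The authors sequenced single-end reads, trimmed them with Trim Galore (0.4.5), aligned them to hg19 with bowtie2 (2.3.3.1), removed duplicates with Picard and called peaks in each library with MACS2 (2.1.0) at a q value of 0.05, per the submitters' processing notes and the study's methods. The deposited score is the −log10 of the q value. Whether reads were shifted for the transposase offset, blacklisted regions removed or mitochondrial reads dropped is not given in the sources used here. The lists hold no read counts, so depth is unknown and no counting interval is given, and list length moves with depth and signal quality.

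Summits were extended by 250 bp on each side and merged over libraries, and a locus took the highest score of each library. Scores were turned into percentile ranks within each library's list of all chromosomes. Loci were annotated with GENCODE release 44 mapped to GRCh37. Sequence was read from GRCh37. Differences are the SAP30-KO1 mean minus the Parental mean of the ranks. Apart means that the ranges of 3 and 3 libraries did not overlap. Arms needed 20 and windows 10 shared loci for ranks to be compared. Ranks, shares and tests were computed with Python (3.11.15), pandas (2.3.3) and scipy (1.17.1). The merging and ranking alone were tried on simulated lists of equal length with a known shift, which did not cover the shares, the tests or lists of unequal length. Between any pair of libraries at most 0.821% of the chromosome 4 summit positions were identical. Protein-coding promoter loci (5 per arm and direction) and distal loci (3) were named by the largest difference among those apart, list genes by the highest mean rank (4), and loci in one group only by rank (3). One list gene that this rule names is not reported here. The chromosome, its members, the gene lists and the rules were chosen with earlier results of these data known. Alternatives were a q value of 0.01, equal numbers of top-scoring summits, windows of 100 bp, centred log2 scores, ranks among shared loci only, a replicate block, arms without their outer and inner 1 Mb, promoters within 500 bp or 2.5 kb, windows of 5 Mb, and each library left out.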

Additional observations from a re-analysis of the deposited data

How the results depend on the processing

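The shares of both arms kept their direction and stayed apart under every alternative run, with log2 ratios of 0.249 to 0.287 for the short arm and -0.147 to -0.100 for the long arm. Shares that are apart stay apart when a library is left out, so those runs could not have failed. The short arm's median difference of ranks was 5.82 to 9.93 points and stayed apart, and on the centred log2 score it was 0.26. That of the long arm was -3.45 to -0.0802 points and stayed negative. Its groups were apart without SAP30-KO1 replicate 2 (-3.45), with ranks among shared loci only (-2.10) and on the centred log2 score (-0.07), and overlapped otherwise.

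The promoter minus distal difference changed sign between alternatives, from -1.98 to 2.23 on the short arm and from -0.688 to 0.809 on the long arm. The latter was -0.0172 on the centred log2 score and -0.688 to 0.773 with a library left out. Replicate numbers did not pair the samples, as deviations of same-numbered libraries had correlations of -0.0179, -0.0127 and -0.00320. With the number as a replicate block, the median difference was 5.91 on the short arm and -1.80 on the long arm, and the promoter minus distal difference was -1.74 and -0.562.

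Counts of loci with ranks apart depend on the number of libraries, as 5 libraries are more often apart by construction. With a library left out, 62 to 86 short-arm and 140 to 164 long-arm loci were apart, 114 to 155 loci were in one group only, and 3 to 8 windows of 10 Mb had median ranks apart. With windows of 100 bp on each side of a summit, 45 long-arm loci were apart, 22 higher and 23 lower. In windows of 5 Mb, 9 of 37 had median ranks apart, 7 higher on the short arm and 2 lower on the long arm.

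With promoters within 2.5 kb, the promoter share differed by -2.50 points between the arms and by -7.28 points from the other chromosomes (adjusted p = 0.09375, exact paired permutation test). With 5 libraries the smallest p is 0.0625, so these could not pass, and the differences were -2.59 to -1.85 and -5.93 to -5.52 points. The difference in summits per Mb, not past the threshold in any fit, was -0.108 to 0.618 with a library left out. Of 32 named loci with ranks apart, 25 stayed apart under every alternative run on them, and none changed direction. These loci were named because they were apart in the same libraries. Leaving a library out could hardly bring them to overlap, so those runs are no support for them. The 20 windows of chromosome 4 gave 9 to 15 with shares apart.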
